A study of Mus musculus with 30 samples.

Results

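The last day before the differentiation signal was examined in control 3T3-L1 preadipocytes. 3T3-L1 is a mouse fibroblast line that, once it has grown to confluence and stopped dividing, can be turned into adipocytes with a hormone cocktail. All cells of the series were reverse-transfected, which means that they were plated into the siRNA and lipid mixture, while still sub-confluent and 3 days before that cocktail would be given. The 5 day 0 libraries (72 h after transfection) and the 5 day −1 libraries (48 h) of cells that had received 50 nM of a scramble siRNA, which targets no transcript, were chosen by their column names, 10 of the 30 libraries of the series. Both groups therefore received the same siRNA and lipid and differ in the day of collection, and with it in the time since transfection. The other libraries were the 5 scramble libraries of day −2 (24 h) and 15 libraries of cells given 50 nM of an siRNA against Kdm5c on the same 3 days. The cells are 1 line, the labels give no cell density beyond the sub-confluent plating, and they do not say whether replicates were separate cultures. The p-values below therefore rest on differences among these libraries alone, possibly technical ones.

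Growth arrest by contact is a reversible exit from the cell cycle in G1. D-type and E-type cyclins with their kinases inactivate the retinoblastoma pocket proteins and free E2F factors to switch on genes of DNA synthesis, while CDK inhibitors oppose them. In arrested cells, pocket protein complexes (DREAM) hold the promoters of mitotic genes silent through a DNA element called CHR, with CCAAT boxes beside it. In 3T3-L1 cells this arrest precedes the hormone-induced clonal divisions and the C/EBP and PPARgamma cascade that makes adipocytes, and arrested fibroblasts in general secrete a rich extracellular matrix.

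The 10 libraries held 26252962 to 30147488 reads. Levels are given in CPM, reads scaled to a fixed library size, which do not correct for gene length and are compared only within a gene. The deposited count table held 12016 genes, and 99.73 to 99.8% of the reads. Of 10 fibroblast markers 9 averaged at least 1 CPM. The summed level of the 10 was 34562.0 to 38470.0 CPM on day 0 and 27563.9 to 30431.5 CPM on day −1. Most of this sum is Col1a1, Col1a2 and Col3a1, which averaged higher on day 0, as did Pdgfra, Pdgfrb, Dcn, Prrx1 and Fap. Vim (2037 CPM on day 0 and 2788 CPM on day −1) and Thy1 (396 CPM on day 0 and 454 CPM on day −1) averaged lower. Of the 8 markers of mature adipocytes only Fabp4 reached 1 CPM. Of the leukocyte markers 4 of 10 averaged at least 1 CPM, of the endothelial 3 of 8 and of the epithelial 0 of 8, while Adgre1, Itgam, Cldn5, Epcam and Krt18 among them had 0 reads in all 10 libraries. The endothelial markers summed to 6.67 to 7.36 CPM on day 0 and 3.93 to 4.34 CPM on day −1. The leukocyte sums, higher on day 0 through Cd74, are given with the interferon-stimulated genes. On the first principal component of all 30 libraries (83.2% of the variance), day 0 libraries 1 and 3 sat at 42.6 and 46.2 and the other day 0 libraries at 50.1 to 50.6. Day −1 libraries 1, 2 and 3 sat at 7.8 to 8.4 and day −1 libraries 4 and 5 at 2.4 and 2.8, against −47.7 to −46.2 for day −2. Neither set is marked as a batch in the labels, so results were also computed without each.

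Most genes differed between day 0 and day −1. Of 12016 genes, 4420 (36.8%) were higher and 4557 (37.9%) lower on day 0 at an adjusted p under 0.05 (edgeR quasi-likelihood test with Benjamini-Hochberg adjustment, as for all adjusted p-values here), and 3039 (25.3%) were not called. Most differences were small: 908 genes rose and 805 fell by more than 1.5-fold, 279 rose and 221 fell by more than 2-fold, and 25 rose and 12 fell by more than 4-fold. All 5 day 0 libraries lay above all 5 day −1 libraries for 3200 genes (26.6%) and below them for 4102 genes (34.1%). The counts were 4106 higher and 4252 lower without day −1 libraries 1, 2 and 3, and 4166 and 4289 without day −1 libraries 4 and 5. Without day 0 libraries 1 and 3 they were 4307 and 4435. In the preceding 24 h, day −1 over day −2, 4748 genes (39.5%) were higher and 4729 (39.4%) lower. In a test of the difference between the steps, given below, 23.7% of all genes had a more positive second step and 26.2% a more negative one. These shares are the background for every count of a gene group below. The median log2 fold change over all genes, day 0 over day −1, was −0.01.

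**Figure D1:**
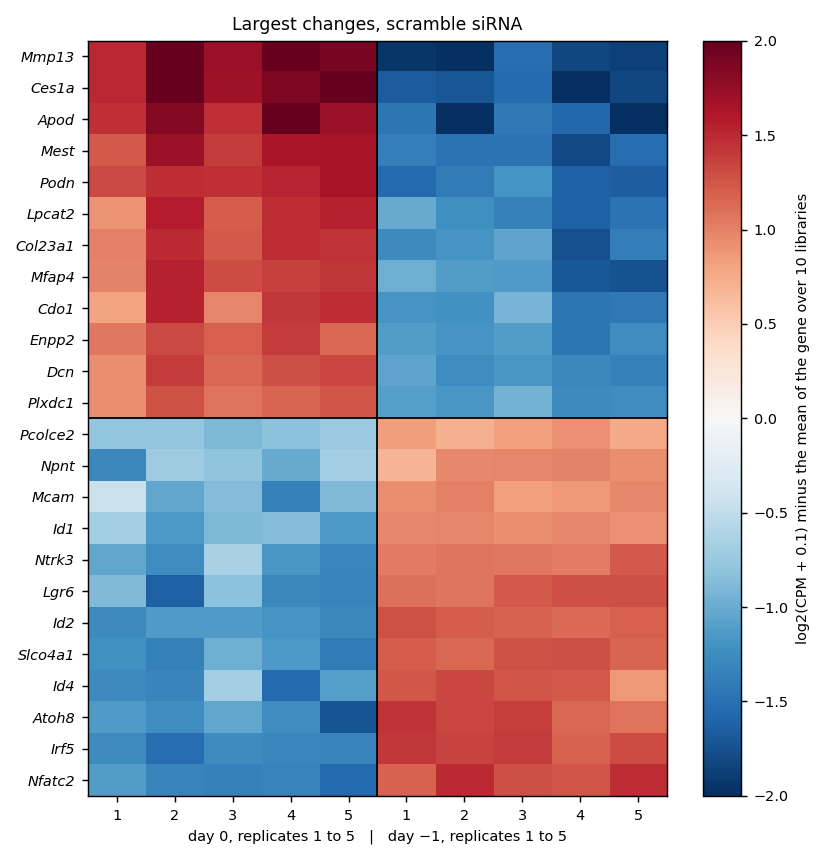
Heat map of the 12 genes of the count table with the largest rises (above the line) and the 12 with the largest falls, at a mean of at least 2 CPM. Day 0 libraries 1 to 5 are in the left columns and day −1 libraries 1 to 5 in the right columns. Colour gives log2(CPM + 0.1) minus the mean of the gene over the 10 libraries; red is higher. The groups do not overlap for any of the 24 genes, which was a condition of their choice, and day 0 library 1 is paler than the others for several rises.

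Genes of secreted and matrix proteins were among those that rose most. The largest rises and falls given here and in the next paragraph are those of the count table. Lum, given below with the genes outside that table, had a larger log2 fold change than any of these rises. Mmp13, collagenase 3, which cuts fibrillar collagen (GRCm38 chromosome 9, 7272514 to 7283331, plus strand), had 23.2, 36.0, 27.2, 33.4 and 30.5 CPM in the 5 day 0 libraries, against 2.04, 1.82, 2.76, 2.24 and 2.15 CPM in the 5 day −1 libraries. On the log2 scale the rise was 3.80 ± 0.14 (estimate ± SE, as in all such values; adjusted p = 3.7e-22), with no overlap, and over the preceding day Mmp13 had not been called (−0.24, adjusted p = 0.291). The next largest log2 fold changes were 3.77 ± 0.11 for Ces1a, a carboxylesterase with close gene copies, 3.50 ± 0.18 for Apod, a lipid-binding apolipoprotein, 3.14 ± 0.13 for the imprinted gene Mest, 3.08 ± 0.088 for Podn, a small leucine-rich proteoglycan, and 2.78 ± 0.12 for Lpcat2, a phospholipid acyltransferase. Col23a1, a transmembrane collagen, followed at 2.72 ± 0.12, then Mfap4, a microfibril protein, at 2.69 ± 0.11 and Cdo1, cysteine dioxygenase, at 2.56 ± 0.14. Enpp2, which encodes the lysophosphatidic acid producer autotaxin, reached 2.51 ± 0.074, Dcn (decorin) 2.48 ± 0.073 and the receptor gene Plxdc1 2.36 ± 0.10. Of these 12 genes, all but Mmp13 had also risen over the preceding day. The count table holds only genes with at least 1 CPM in 20 or more libraries. Genes that reach this level on day 0 only are left out, so nothing is read from this share.

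The genes that fell most were led by transcription regulators. Nfatc2, a calcium-dependent transcription factor (GRCm38 chromosome 2, 168476410 to 168601657, minus strand), had 0.634, 0.533, 0.519, 0.531 and 0.438 CPM in the 5 day 0 libraries, against 3.50, 4.35, 3.80, 3.68 and 4.30 CPM in the 5 day −1 libraries, a log2 fold change of −2.84 ± 0.14 (adjusted p = 8.54e-19). All day 0 libraries lay below all day −1 libraries, and the preceding day had left Nfatc2 uncalled (−0.05, adjusted p = 0.642). Irf5, an interferon regulatory factor, had a log2 fold change of −2.66 ± 0.064, Atoh8, a basic helix-loop-helix factor, of −2.54 ± 0.083, and the inhibitor of DNA binding genes Id4, Id2 and Id1 of −2.45 ± 0.16, −2.38 ± 0.058 and −1.85 ± 0.063. The rest were Slco4a1, an organic anion transporter (−2.45 ± 0.11), Lgr6, an R-spondin receptor (−2.37 ± 0.11), Ntrk3, the neurotrophin-3 receptor (−2.14 ± 0.10), the adhesion molecule Mcam (−1.81 ± 0.11), Npnt, an integrin ligand (−1.80 ± 0.095), and Pcolce2, which enhances procollagen cleavage (−1.62 ± 0.080).

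**Figure D2:**
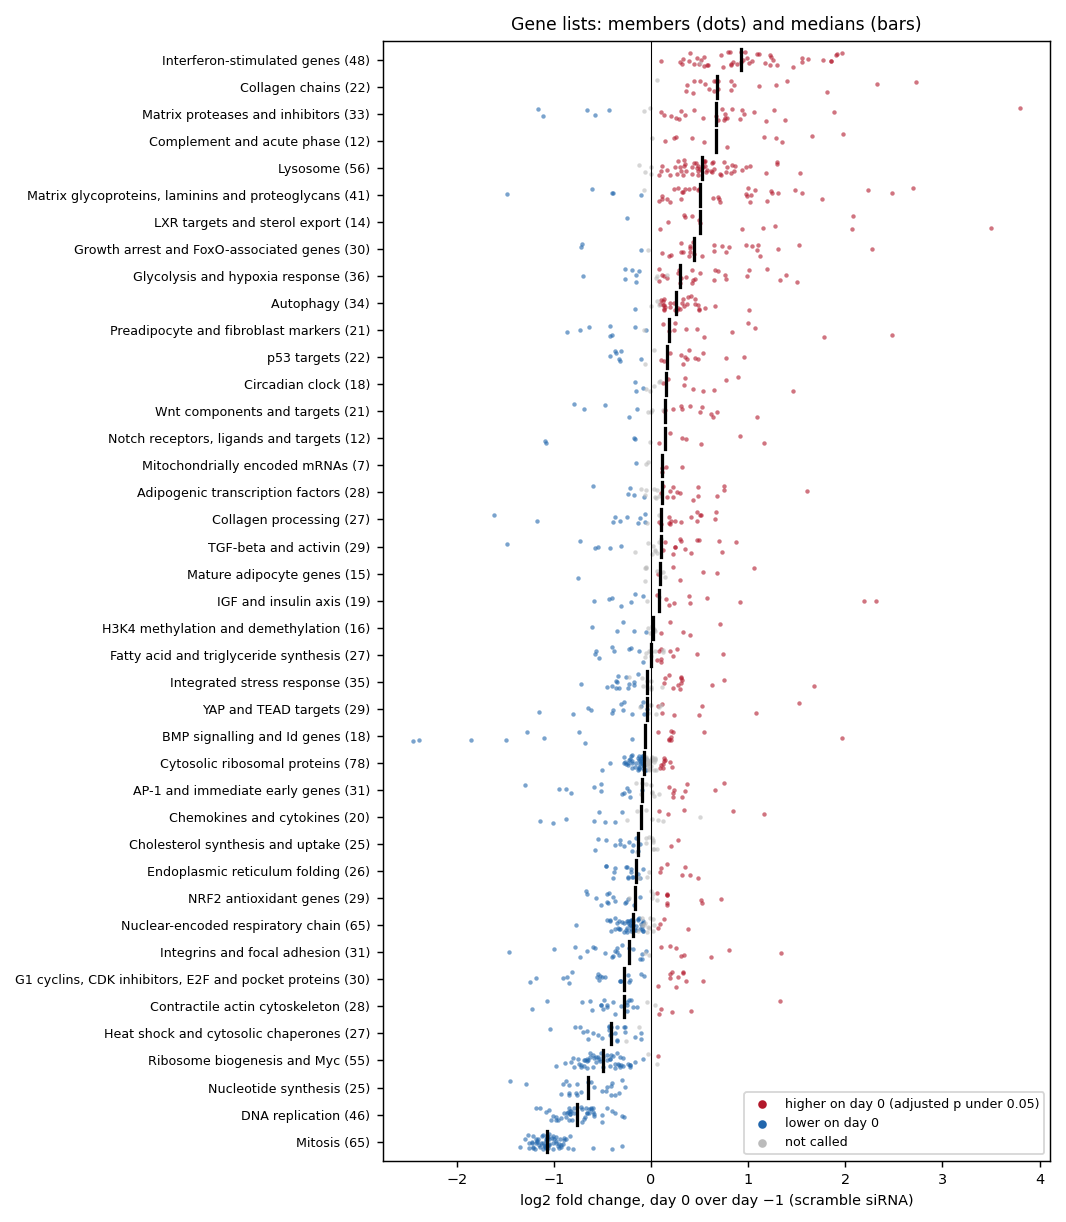
Log2 fold change, day 0 over day −1, of every measured member (dots) of 41 gene lists, ordered by the list median (black bar). The number of measured members stands in brackets. Red dots were called higher, blue dots lower and grey dots not called; mitosis (median −1.07) lies lowest and interferon-stimulated genes (0.93) highest.

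Mitotic genes fell together on day 0. Each of the 65 measured members of the mitosis list (cyclin B kinase, spindle, kinetochore, condensin and cytokinesis genes) was lower at an adjusted p under 0.05, where 37.9% of all genes were lower, and in each the 5 day 0 libraries lay below the 5 day −1 libraries. The median log2 fold change was −1.07, or 47.7% of the day −1 level, and 46 members fell by more than 2-fold. In bulk RNA, fewer cycling cells and less of these transcripts per cell cannot be told apart. Mki67, the Ki-67 proliferation antigen, had 248, 236, 239, 212 and 236 CPM in the 5 day 0 libraries, against 538, 524, 521, 538 and 545 CPM in the 5 day −1 libraries. Its log2 fold change was −1.15 ± 0.026 (adjusted p = 2.21e-27), a fall to 45.0% of the day −1 level. The survivin gene Birc5 averaged 22.5 ± 1.14 CPM on day 0 and 58.5 ± 0.940 CPM on day −1 (SD, n = 5 each, as in all such values), the kinesin gene Kif11 45.6 ± 3.30 CPM on day 0 and 113 ± 3.32 CPM on day −1, and Cenpe, a kinetochore motor, 73.3 ± 3.17 CPM on day 0 and 163 ± 5.19 CPM on day −1. Ccnb1, cyclin B1, fell (−1.07 ± 0.042) to 47.7% of its day −1 level, and Top2a, the topoisomerase that untangles replicated chromosomes, to 53.8%. The smallest fall in the list was that of the phosphatase gene Cdc25b (−0.30 ± 0.032). Over the preceding day the list had a median of −0.32, with 57 members lower and 3 higher. In the test of the difference between the steps, 64 of 65 members had a more negative second step, where 26.2% of all genes did.

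The promoters of Mki67 and Cdk1 are shown because they carry the CHR element named above, in capitals here (TTTGAA, or TTCAAA where it lies on the other strand). The windows run from 250 bases before to 50 bases after the transcript start (RefSeq, GRCm38.p6), at chr7:135716330-135716629 on the minus strand for Mki67 and chr10:69352863-69353162 on the minus strand for Cdk1.
Mki67: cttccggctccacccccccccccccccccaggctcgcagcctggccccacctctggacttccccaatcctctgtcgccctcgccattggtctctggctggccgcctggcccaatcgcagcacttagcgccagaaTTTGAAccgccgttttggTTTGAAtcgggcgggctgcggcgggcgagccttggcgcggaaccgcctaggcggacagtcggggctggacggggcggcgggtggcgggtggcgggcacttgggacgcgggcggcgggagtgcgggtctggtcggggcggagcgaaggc
Cdk1: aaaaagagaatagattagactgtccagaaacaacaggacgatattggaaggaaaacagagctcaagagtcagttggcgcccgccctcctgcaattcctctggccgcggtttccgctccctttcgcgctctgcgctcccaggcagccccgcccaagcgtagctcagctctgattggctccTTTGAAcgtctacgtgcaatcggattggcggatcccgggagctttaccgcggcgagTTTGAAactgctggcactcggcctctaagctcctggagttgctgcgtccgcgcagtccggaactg
The matches begin 116 and 98 bases before the start in Mki67 and 71 and 15 bases before it in Cdk1. Read on both strands, TTTGAA was present in 73.7% of the 57 windows of 54 mitosis genes, in 20.8% of the 48 windows of 38 DNA replication genes and in 11.9% of the 11605 windows of the 9075 tested genes that had one. CCAAT, also read on both strands, was in 73.7% of the mitosis windows, 60.4% of the replication windows and 38.2% of all. Such a match describes the letters and is not evidence that a factor binds there.

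DNA replication genes fell as a group, by less. All 46 measured members were lower, with a median log2 fold change of −0.76 (59.2% of the day −1 level) and no overlap of libraries in any. Uhrf1, which guides maintenance methylation to newly made DNA, had 96.0, 80.7, 91.5, 83.8 and 89.9 CPM in the 5 day 0 libraries, against 182, 186, 185, 202 and 204 CPM in the 5 day −1 libraries. Its log2 fold change was −1.08 ± 0.039 (adjusted p = 1.74e-22). The maintenance methyltransferase gene Dnmt1 averaged 176 ± 9.51 CPM on day 0 and 297 ± 12.7 CPM on day −1, and the helicase subunit gene Mcm4 145 ± 9.08 CPM on day 0 and 266 ± 9.28 CPM on day −1. Mcm3, of the same helicase, averaged 102 ± 6.42 CPM on day 0 and 189 ± 11.7 CPM on day −1. The histone chaperone gene Asf1b fell furthest (−1.19 ± 0.051) and Cdc7, a kinase that fires origins, least (−0.28 ± 0.048). Over the preceding day the median had been −0.44 with 43 members lower. Nucleotide synthesis genes followed: all 25 were lower with a median of −0.65. Rrm2, the small subunit of ribonucleotide reductase, averaged 52.7 ± 6.29 CPM on day 0 and 148 ± 7.0 CPM on day −1, a fall to 36.5% of day −1, and its partner Rrm1 fell to 55.7%. Tk1, thymidine kinase, and Tyms, thymidylate synthase, stood at 40.9% and 55.7% of day −1. For this list the second step was about as large as the first (median −0.66). In the test of the difference 7 members were more positive and 8 more negative (1 and 9 without day −1 libraries 1, 2 and 3). The counts of 7 and 8 are near the shares of all genes, 23.7% and 26.2%.

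Promoters of Uhrf1 and Dnmt1 are shown as examples of replication genes with E2F motif letters in capitals. For every promoter shown here, 1 window with a match was taken where a gene had several transcript starts, and this need not be the main start. The match begins 185 bases before the start used in Uhrf1, and the matches begin 219 bases before and 33 bases after it in Dnmt1. They lie at chr17:56304063-56304362 on the plus strand and chr9:20952574-20952873 on the minus strand.
Uhrf1: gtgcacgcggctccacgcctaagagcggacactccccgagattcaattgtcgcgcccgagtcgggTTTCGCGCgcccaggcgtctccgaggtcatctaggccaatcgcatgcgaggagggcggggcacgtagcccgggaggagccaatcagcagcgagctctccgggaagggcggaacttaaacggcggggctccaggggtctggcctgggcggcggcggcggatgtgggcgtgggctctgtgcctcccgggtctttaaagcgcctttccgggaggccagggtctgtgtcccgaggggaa
Dnmt1: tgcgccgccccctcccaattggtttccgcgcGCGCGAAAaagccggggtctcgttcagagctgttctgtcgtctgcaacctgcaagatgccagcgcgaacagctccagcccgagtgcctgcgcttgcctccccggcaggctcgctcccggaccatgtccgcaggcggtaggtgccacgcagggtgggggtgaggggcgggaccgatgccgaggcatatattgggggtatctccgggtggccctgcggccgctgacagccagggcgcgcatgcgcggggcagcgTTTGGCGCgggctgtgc
The motif searched was any of TTTCCCGC, TTTGGCGC, TTTCGCGC and TTTGCCGC on either strand. It was in 33.3% of the DNA replication windows, in 7.02% of the mitosis windows and in 4.05% of all windows.

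Regulators of the G1 phase moved both ways. Of 30 measured, 20 fell and 10 rose. Ccnd1, cyclin D1, which senses growth factors, had 296, 268, 273, 264 and 253 CPM in the 5 day 0 libraries, against 484, 497, 495, 554 and 564 CPM in the 5 day −1 libraries. The groups did not overlap (log2 fold change −0.90, SE 0.037, adjusted p = 5.48e-21). Ccne1 and Ccne2, the E-type cyclins, fell (−0.85 ± 0.039 and −1.19 ± 0.067), as did E2f7, an atypical E2F made in S phase (−1.25 ± 0.052). Cdkn1a, the CDK inhibitor p21, had 251, 261, 259, 262 and 271 CPM in the 5 day 0 libraries, against 194, 190.3, 179.5, 179.9 and 181 CPM in the 5 day −1 libraries, again with no overlap (log2 fold change 0.53, SE 0.028, adjusted p = 5.59e-18). Smaller rises were those of Cdkn2a (0.33 ± 0.022), Cdkn1b, which encodes p27 (0.28 ± 0.025), and Cdkn2b, which encodes p15 (0.26 ± 0.034). The pocket protein genes Rb1 and Rbl2 rose (0.36 ± 0.058 and 0.21 ± 0.043), while Rbl1, itself an E2F target, fell (−0.55 ± 0.041). Ccnd2 differed by 0.08 ± 0.021 with overlapping libraries. Cdkn1c was not in the count table; it read 0 to 0.15 CPM in these 10 libraries. Without day −1 libraries 1, 2 and 3, 7 members of the list were higher and 19 lower.

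Growth arrest and FoxO-associated genes, a list of transcripts known to be high in arrested or growth factor deprived cells, rose. Of 30 members 26 were higher (36.8% of all genes) and 3 lower, with a median of 0.44. Gadd45a, a stress and arrest gene, had 65.5, 73.4, 62.8, 67.8 and 73.0 CPM in the 5 day 0 libraries, against 23.1, 25.4, 23.7, 24.9 and 25.2 CPM in the 5 day −1 libraries. Its log2 fold change was 1.52 ± 0.051 (adjusted p = 2.41e-23). The largest rise was that of Bmf, a BH3-only death gene (2.28 ± 0.11). Txnip, a redox and glucose uptake regulator (1.10 ± 0.042), and Klhl24 (1.09 ± 0.045) rose as well. Hbp1, a transcription repressor of G1 genes, rose by 0.81 ± 0.031. The growth arrest-specific genes differed in direction: Gas6, a ligand of receptor tyrosine kinases, averaged 566 ± 32.2 CPM on day 0 and 348 ± 41.0 CPM on day −1, and Gas1, a Hedgehog co-receptor, 503 ± 28.1 CPM on day 0 and 382 ± 50.5 CPM on day −1, both higher, while Gas2, a cytoskeletal protein gene, averaged 75.6 ± 3.30 CPM on day 0 and 128 ± 5.12 CPM on day −1 and fell. Bcl6 (−0.71 ± 0.072) and Ccng1 (−0.10 ± 0.028) fell too, although Ccng1 was not called without day −1 libraries 1, 2 and 3 (adjusted p = 0.0832). The list's median had been 0.79 over the preceding day. Among 22 p53 targets 13 rose, 7 fell and 2 were not called, with a median of 0.16. Trp53inp1 (0.95 ± 0.043), Zmat3 (0.35 ± 0.021) and Eda2r (0.48 ± 0.032) rose, and Aen, a nuclease (−0.38 ± 0.038), and Trp53 itself (−0.31 ± 0.033) fell.

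**Figure D3:**
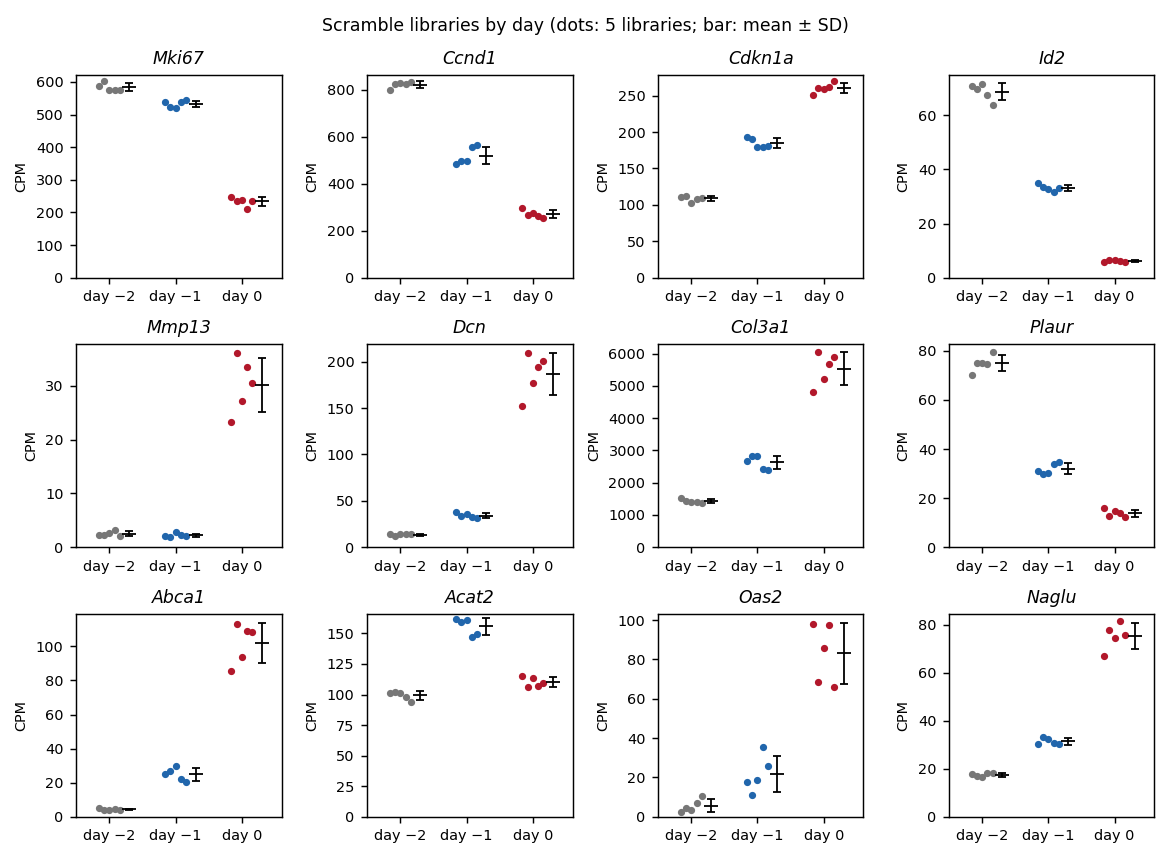
Level in CPM of 12 genes in each scramble library of day −2, day −1 and day 0 (dots, 5 libraries a day; black bars, mean ± SD). Mki67 falls mainly in the second step, Mmp13 rises in the second step only, Id2, Ccnd1 and Plaur fall in both, and Acat2 is highest on day −1.

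All 4 Id genes fell sharply. Id proteins bind basic helix-loop-helix factors and keep them off DNA, and they are induced by bone morphogenetic protein (BMP) signals. Id2 had 5.91, 6.48, 6.49, 6.30 and 5.84 CPM in the 5 day 0 libraries, against 35.0, 33.5, 32.7, 31.8 and 33.0 CPM in the 5 day −1 libraries, a fall to 19.1% of day −1 (log2 fold change −2.38, SE 0.058, adjusted p = 8.25e-27). The day 0 values stood close together and far below those of day −1. Id3 averaged 23.7 ± 2.19 CPM on day 0 and 68.5 ± 3.15 CPM on day −1 and Id1 31.8 ± 4.41 CPM on day 0 and 118 ± 1.94 CPM on day −1. The rest of the BMP list was mixed, 9 of 18 members higher and 9 lower: the antagonist gene Chrdl1 rose (1.96 ± 0.11), and Bmp1, which encodes a procollagen protease despite its name, rose a little (0.21 ± 0.019). For TGF-beta and activin, 14 of 29 members rose and 6 fell. Acvr2a, an activin receptor (0.88 ± 0.034), Fstl1 (0.70 ± 0.039) and the matrix gene Tgfbi (0.73 ± 0.050) rose, while Ltbp1, which tethers latent TGF-beta to matrix (−1.48 ± 0.031), the inhibitory Smad gene Smad7 (−0.73 ± 0.051) and Inhba, the activin A subunit (−0.55 ± 0.047), fell.

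Targets of YAP and TEAD, which report cell spreading and density in fibroblasts, moved both ways. Of 29 measured, 14 were lower, 8 higher and 7 not called, with a median of −0.04. The matricellular gene Ccn1 averaged 46.5 ± 4.82 CPM on day 0 and 74.9 ± 6.83 CPM on day −1, and its relative Ccn2 5.93 ± 1.44 CPM on day 0 and 13.6 ± 1.37 CPM on day −1, both lower. Tead4 fell (−0.81 ± 0.048), as did Amotl2, which binds YAP (−0.39 ± 0.037). F3, tissue factor (1.08 ± 0.027), and Amotl1 (0.49 ± 0.021) rose. The list had a median of −0.30 over the preceding day, with 19 members lower. A more positive second step was called for 19 members and a more negative one for 3, where the shares of all genes were 23.7% and 26.2%. Immediate early genes were likewise mixed (9 of 31 higher, 13 lower). Fosl1 (−1.30 ± 0.069) and Jun (−0.88 ± 0.048), subunits of AP-1, fell, as did Srf (−0.51 ± 0.037) and the MAP kinase phosphatase gene Dusp4 (−0.94 ± 0.079), and Egr1 rose (0.75 ± 0.052). Without day −1 libraries 4 and 5, 6 members were higher and 10 lower among the YAP targets and 6 higher and 13 lower among the immediate early genes.

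Extracellular matrix transcripts rose broadly. Of 22 measured collagen chains 21 were higher, with no overlap of libraries in any of the 21, and Col8a1 was not called (0.06 ± 0.045, adjusted p = 0.214). The median log2 fold change was 0.68, against 0.55 over the preceding day. Col3a1, the fibrillar collagen of elastic tissues, had 4814, 6065, 5207, 5680.0 and 5910.3 CPM in the 5 day 0 libraries, against 2688, 2820.1, 2819.7, 2429.6 and 2398 CPM in the 5 day −1 libraries. The rise was 2.15-fold (log2 fold change 1.11, SE 0.052, adjusted p = 2.77e-19). Col1a1 and Col1a2, the chains of collagen I, rose least of those called, by 0.37 ± 0.033 and 0.36 ± 0.037. Col11a1, a fibril-nucleating chain, averaged 83.8 ± 9.62 CPM on day 0 and 17.2 ± 1.75 CPM on day −1, and the basement membrane chains Col4a2 and Col18a1 rose by 0.82 ± 0.034 and 0.82 ± 0.029.

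Matrix glycoproteins, laminins and proteoglycans showed 35 of 41 members higher and 5 lower, with a median of 0.50. Dcn, decorin, which binds collagen fibrils and TGF-beta, had 152, 209, 177, 194 and 200.2 CPM in the 5 day 0 libraries, against 38.0, 33.6, 35.4, 32.4 and 31.2 CPM in the 5 day −1 libraries. The days did not overlap, and day 0 library 1 was the lowest of its day (log2 fold change 2.48, SE 0.073, adjusted p = 1.01e-24). Fn1, fibronectin, had 19094, 19734, 19647, 19610.4 and 19965 CPM in the 5 day 0 libraries, against 9767, 9788, 9769.8, 9269 and 9329 CPM in the 5 day −1 libraries, a rise of 2.10-fold (log2 fold change 1.07, SE 0.023, adjusted p = 4.03e-28). Laminin chain genes Lama2 and Lama5 rose by 2.23 ± 0.16 and 0.98 ± 0.033. The 5 that fell included Ltbp1, given above, Ecm1 (−0.61 ± 0.037), Igfbp7 (−0.40 ± 0.049) and the hyaluronan synthase gene Has2 (−0.39 ± 0.051).

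Genes that cut matrix rose beside it. In the list of matrix proteases and inhibitors 26 of 33 members were higher and 5 lower, with a median of 0.67. Mmp2, gelatinase A, had 1845, 2336, 2063, 2293 and 2333 CPM in the 5 day 0 libraries, against 629.5, 636, 666, 544 and 534 CPM in the 5 day −1 libraries (log2 fold change 1.89, SE 0.061, adjusted p = 1.01e-23). No library overlapped between the days. Mmp14, the membrane protease that activates Mmp2, rose by 0.78 ± 0.027, Mmp11, stromelysin 3, by 1.27 ± 0.043, and the inhibitor gene Timp3 by 0.84 ± 0.028. Plaur, the urokinase receptor gene, had 15.9, 12.8, 14.7, 13.9 and 12.3 CPM in the 5 day 0 libraries, against 31.0, 29.7, 30.1, 34.0 and 34.6 CPM in the 5 day −1 libraries. It fell without overlap (log2 fold change −1.16, SE 0.060, adjusted p = 3.09e-18). Timp1 (−0.66 ± 0.037) and Adam12 (−1.11 ± 0.051) fell as well. Collagen-processing genes were split, 15 of 27 higher and 10 lower. Prolyl hydroxylase P4ha1 (0.66 ± 0.040) and the procollagen protease gene Adamts2 (0.67 ± 0.040) rose, Pcolce2, given above, and Tll1 (−1.17 ± 0.13) fell, and the cross-linking enzyme gene Lox averaged 1088 ± 47.1 CPM on day 0 and 1055 ± 103 CPM on day −1 and was not called (adjusted p = 0.175), though it was without day −1 libraries 1, 2 and 3 (0.24, adjusted p = 0.000764).

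Adhesion and contractile genes mostly fell. Among integrins and focal adhesion genes 21 of 31 were lower and 8 higher, with a median of −0.23. Cav1, caveolin 1, averaged 275 ± 10.5 CPM on day 0 and 565 ± 20.5 CPM on day −1, Cavin1, its partner in caveolae, 529.7 ± 15.8 CPM on day 0 and 858 ± 6.76 CPM on day −1, and the actin cross-linker gene Actn4 444 ± 16.5 CPM on day 0 and 687 ± 12.1 CPM on day −1. The collagen receptor gene Itga11 was an exception and rose by 1.34 ± 0.082. Of 28 contractile genes 21 were lower and 5 higher, with a median of −0.28. Acta2, smooth muscle actin, had 562, 502, 545, 513 and 514 CPM in the 5 day 0 libraries, against 902, 930.4, 869, 862 and 844 CPM in the 5 day −1 libraries. Its fall to 61.2% of day −1 left no overlap, and the summed level of the smooth muscle markers, most of which is Acta2, was 542.7 to 600.1 CPM on day 0 and 867.5 to 958.4 CPM on day −1. Actb and Actg1, the cytoplasmic actins, stood at 71.4% and 72.8% of day −1 and Tpm4, a tropomyosin, at 65.7%. Mylk, myosin light chain kinase, rose by 1.33 ± 0.085.

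**Figure D4:**
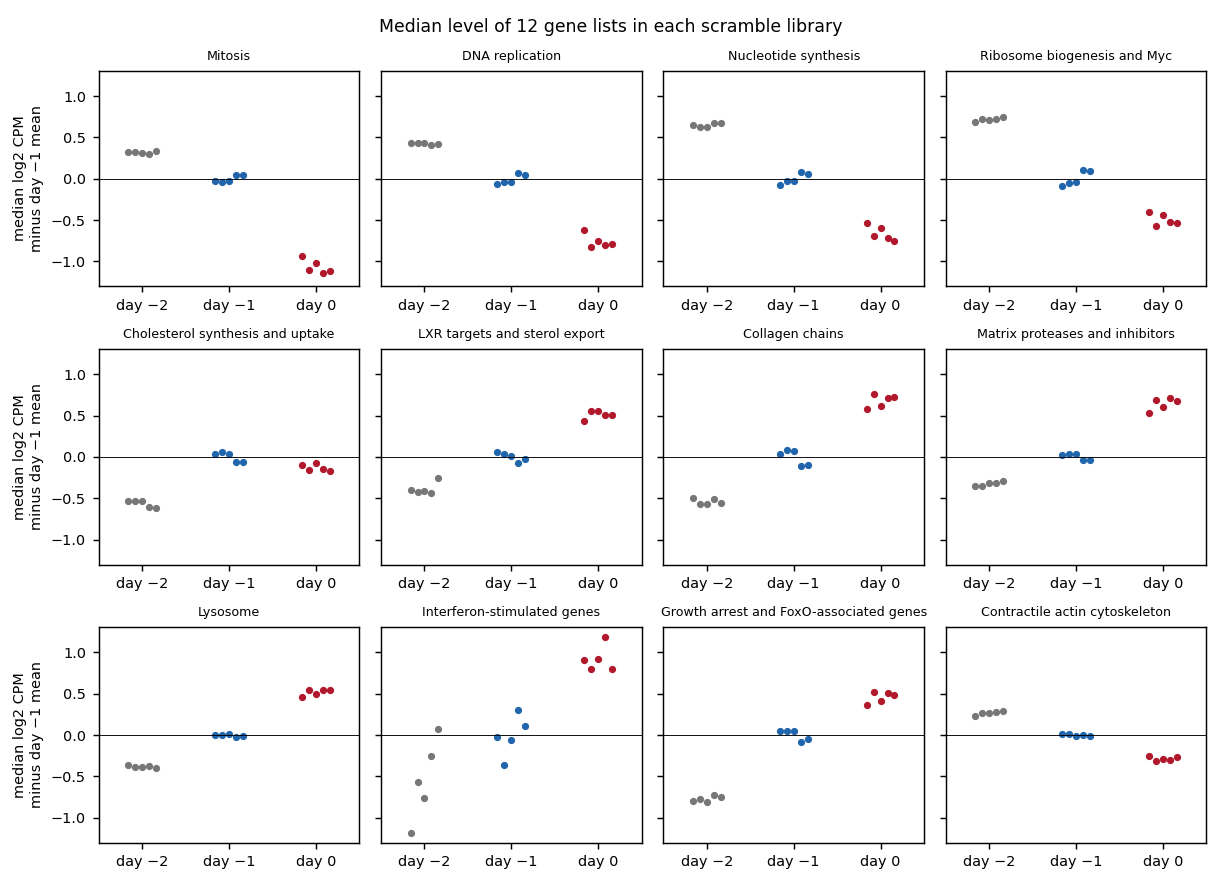
Median level of 12 gene lists in each scramble library, as log2 CPM minus the mean of the day −1 libraries, for day −2, day −1 and day 0 (5 dots a day). Mitosis lies between −1.139 and −0.934 in the day 0 libraries and between −0.036 and 0.045 in the day −1 libraries, and cholesterol synthesis is the one of the 12 whose mean day −1 level is above those of both other days.

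Lipid genes divided by pathway. The liver X receptors (LXR) sense oxysterols and switch on sterol export, while SREBP2 switches on cholesterol synthesis when sterols are short. Of 14 LXR targets 13 were higher and 1, Scarb1, was lower (−0.25 ± 0.029), with a median of 0.50. Abca1, the cholesterol exporter of the plasma membrane, had 85.6, 113, 93.5, 109 and 108 CPM in the 5 day 0 libraries, against 25.1, 26.9, 29.6, 22.2 and 20.3 CPM in the 5 day −1 libraries. The rise was 4.21-fold (log2 fold change 2.07, SE 0.081, adjusted p = 1.82e-21) and followed one of 2.46 on the log2 scale over the preceding day. Abcg1, a second exporter, rose by 2.08 ± 0.083, Pltp, which transfers phospholipids between lipoproteins, by 1.15 ± 0.037, and Apoe by 1.28 ± 0.14.

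The rise of cholesterol synthesis genes over the first day did not go on after day −1. Of 25 members 13 were lower on day 0, 2 were higher and 10 were not called, with a median of −0.13, whereas 23 were higher and 0 lower over the preceding day (median 0.58). In the test of the difference 24 of 25 members had a more negative second step and 0 a more positive one, where 26.2% of all genes were more negative. Acat2, whose enzyme joins acetyl-CoA units at the start of the pathway, had 116, 106, 113, 107 and 109 CPM in the 5 day 0 libraries, against 162, 159.7, 161, 147 and 149.8 CPM in the 5 day −1 libraries (log2 fold change −0.47, SE 0.035, adjusted p = 4.91e-14). Its means were 99.4, 156 and 110.2 CPM on day −2, day −1 and day 0, so it was highest on day −1. Fdft1, squalene synthase (−0.27 ± 0.025), and Mvk, mevalonate kinase (−0.37 ± 0.037), fell too. Insig1 (0.20 ± 0.042) and Tm7sf2 (0.28 ± 0.072) rose. Day −1 libraries 4 and 5 had lower levels of this list than day −1 libraries 1, 2 and 3, and without libraries 1, 2 and 3 the median was −0.04, with 11 members lower and 5 higher.

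Fatty acid and triglyceride synthesis showed no common direction: 10 of 27 members rose, 9 fell and the median was 0.00, shares near those of all genes. Fasn, fatty acid synthase, averaged 596 ± 17.4 CPM on day 0 and 809 ± 23.5 CPM on day −1, and Acly, which supplies its acetyl-CoA, 417 ± 13.6 CPM on day 0 and 558 ± 20.6 CPM on day −1, both lower. Elovl6 (−0.54 ± 0.040) and Fabp5 (−0.57 ± 0.048) fell with them, while Acacb (0.75 ± 0.057), Lpin1 (0.47 ± 0.063) and Scd2 (0.20 ± 0.034) rose. Without day −1 libraries 4 and 5, 7 members were higher and 9 lower.

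Adipogenic regulators moved both ways, with more rises than falls. Of 28 measured, 15 rose, 5 fell and 8 were not called, with a median of 0.11. The list was not split into activators and repressors of adipogenesis, so this balance gives no direction for adipogenesis. Zfp423, a zinc finger factor of committed preadipocytes, had 30.6, 35.4, 32.3, 34.3 and 34.6 CPM in the 5 day 0 libraries, against 12.3, 12.7, 12.2, 9.44 and 9.69 CPM in the 5 day −1 libraries (log2 fold change 1.61, SE 0.067, adjusted p = 7.8e-21). Its libraries did not overlap, and it had risen by 2.39 over the preceding day. Nfia (0.75 ± 0.036), Ddit3 (0.75 ± 0.039) and Bhlhe40 (0.43 ± 0.027) rose, and Klf5, a factor of the first hours of adipogenesis, fell (−0.60 ± 0.042). Pparg, the master regulator of adipocytes, had 40.3, 37.6, 39.5, 39.9 and 39.7 CPM in the 5 day 0 libraries, against 40.2, 42.8, 41.8, 41.4 and 44.0 CPM in the 5 day −1 libraries. The ranges overlapped and no change was called (−0.06, adjusted p = 0.133). Cebpa averaged 6.18 ± 0.528 CPM on day 0 and 3.93 ± 0.965 CPM on day −1 and rose (0.68 ± 0.13). Cebpb (−0.24, adjusted p = 0.0436) and Cebpd (0.27, adjusted p = 0.0425) passed the threshold narrowly, with overlapping libraries. Cebpb was no longer called without 7 of the 10 libraries left out 1 at a time and was 0.09 (adjusted p = 0.511) without day −1 libraries 1, 2 and 3. Cebpd was no longer called without 4 of the 10 libraries left out 1 at a time (0.16 to 0.25), and was 0.04 (adjusted p = 0.772) without day −1 libraries 4 and 5. With DESeq2 neither was called (adjusted p = 0.0746 for Cebpb and 0.0699 for Cebpd), and with limma Cebpd was not (adjusted p = 0.06 and 0.0581).

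Of 30 genes of mature adipocytes 15 were in the count table, 6 of them higher and 1, Angptl4, lower (−0.75 ± 0.045). Lpl, the lipase that takes up lipoprotein fat, averaged 634 ± 41.9 CPM on day 0 and 311 ± 23.6 CPM on day −1 and rose 2.08-fold. Plin4 (0.53 ± 0.048) and Plin3 (0.30 ± 0.029), which coat lipid droplets, rose, and Fabp4 was not called (26.2 ± 2.62 CPM on day 0 and 24.3 ± 3.04 CPM on day −1, adjusted p = 0.0896), though it was without day −1 libraries 1, 2 and 3 (0.33, adjusted p = 0.00187). The summed level of the 8 adipocyte markers was 21.97 to 28.79 CPM on day 0 and 21.25 to 27.87 CPM on day −1. Of 21 preadipocyte and fibroblast markers 12 rose and 8 fell. Pdgfra, a receptor of adipose progenitors, averaged 523 ± 34.5 CPM on day 0 and 299.6 ± 17.5 CPM on day −1, Postn, periostin, 1309 ± 149.5 CPM on day 0 and 671 ± 41.4 CPM on day −1, and Dlk1, the preadipocyte factor Pref-1, 2396 ± 129 CPM on day 0 and 1906 ± 108 CPM on day −1, all higher. The hyaluronan receptor gene Cd44 (−0.73 ± 0.029), Vim, vimentin (−0.42 ± 0.019), and Twist2 (−0.64 ± 0.040) fell.

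Complement genes rose, while chemokine genes had no common direction. Of 12 measured complement and acute phase genes, 11 were higher and 0 lower, with a median of 0.67. C3, the central complement component, averaged 180.1 ± 20.6 CPM on day 0 and 46.8 ± 7.58 CPM on day −1, and C1s1 and C1ra, the proteases of the first component, rose by 1.66 ± 0.059 and 1.16 ± 0.047. Cp, ceruloplasmin, rose by 1.35 ± 0.073. Of 20 chemokine and cytokine genes 8 fell and 5 rose, with Ccl7 (−1.14 ± 0.060), Ccl2 (−0.88 ± 0.068) and Il11 (−1.01 ± 0.084) lower and Cxcl5 higher (1.16 ± 0.077).

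Interferon-stimulated genes, antiviral effectors and their regulators, rose nearly throughout. Of 48 members 47 were higher (36.8% of all genes) and 0 lower, with Cxcl10 not called (0.51 ± 0.27, adjusted p = 0.0929). The median log2 fold change of 0.93 was the highest of the 41 lists in the fit of all libraries, 20 members rose by more than 2-fold, and the preceding day had given a median of 0.49. Oas2, which makes the activator of an antiviral RNase, had 98.1, 68.4, 86.0, 97.3 and 66.0 CPM in the 5 day 0 libraries, against 17.9, 11.2, 18.9, 35.4 and 25.8 CPM in the 5 day −1 libraries. The lowest day 0 value exceeded the highest of day −1, with wide spread within each day (log2 fold change 1.96, SE 0.27, adjusted p = 8.72e-08). Stat2, a subunit of the interferon-activated factor ISGF3, had 251, 234, 254, 283 and 234 CPM on day 0, against 127, 103, 119.9, 146 and 129.7 CPM on day −1 (log2 fold change 1.04, SE 0.14, adjusted p = 3.64e-08). The major histocompatibility light chain gene B2m averaged 1485 ± 62.0 CPM on day 0 and 862 ± 110.0 CPM on day −1, Mx1, which traps viral particles, 20.1 ± 3.81 CPM on day 0 and 5.71 ± 1.16 CPM on day −1, Irf1 100.2 ± 3.15 CPM on day 0 and 70.3 ± 2.53 CPM on day −1 and the GTPase gene Ifi47 11.5 ± 2.27 CPM on day 0 and 3.15 ± 0.570 CPM on day −1. Some members overlapped between the days, for example Oas1a (0.97 ± 0.31, adjusted p = 0.00494; 0.44 and adjusted p = 0.3 without day −1 libraries 1, 2 and 3, and 0.77 and adjusted p = 0.0509 without day 0 libraries 1 and 3), and several belong to families of close copies.

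The list's level varied within a day. Relative to the day −1 mean, its median log2 level was 0.905, 0.795, 0.915, 1.189 and 0.794 in day 0 libraries 1 to 5, against −0.019, −0.362, −0.057, 0.299 and 0.107 in day −1 libraries 1 to 5. Day −1 library 2 was lowest and library 4 highest on its day, and the days did not overlap. On day −2 the same level was −1.183, −0.564, −0.757, −0.250 and 0.073 in libraries 1 to 5, so day −2 library 5 lay within the range of day −1. Without day −1 libraries 1, 2 and 3 the median was 0.66 with 34 members called higher, below the medians of complement (0.84), collagen chains (0.78) and matrix proteases (0.69), and without day −1 libraries 4 and 5 it was 1.12 with 46. The summed level of 10 leukocyte markers was 15.92 to 17.71 CPM on day 0 and 12.02 to 13.50 CPM on day −1. Among them Adgre1 and Itgam were at 0, and Ptprc and Tyrobp averaged under 0.1 CPM on both days. Cd74, a gene that interferon also induces, averaged 7.50 CPM on day 0 and 2.01 CPM on day −1 and carried the rise of the sum. Csf1r (1.07 CPM on day 0 and 2.185 CPM on day −1), Cd14 (5.83 and 6.63 CPM) and Lyz2 (0.143 and 0.300 CPM) averaged lower on day 0. Cd68 (1.74 and 1.48 CPM) and Fcer1g (0.199 and 0.167 CPM) averaged higher. Both days had the same siRNA and lipid, but day 0 lay 72 h and day −1 48 h after transfection. Time since transfection and the growth of the culture cannot be told apart here. The part of the siRNA and lipid in the levels was not tested.

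Promoters of B2m and Stat2 are shown because they hold the letters of an interferon-stimulated response element, in capitals (GAAANNGAAA, N being any base, or its reverse TTTCNNTTTC). They lie at chr2:122147437-122147736 and chr10:128270248-128270547, both on the plus strand.
B2m: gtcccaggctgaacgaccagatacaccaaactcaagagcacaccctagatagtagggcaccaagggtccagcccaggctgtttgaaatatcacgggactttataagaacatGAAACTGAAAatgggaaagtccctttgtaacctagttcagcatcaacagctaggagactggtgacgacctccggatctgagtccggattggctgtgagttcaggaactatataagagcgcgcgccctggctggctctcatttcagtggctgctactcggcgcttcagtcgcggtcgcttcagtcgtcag
Stat2: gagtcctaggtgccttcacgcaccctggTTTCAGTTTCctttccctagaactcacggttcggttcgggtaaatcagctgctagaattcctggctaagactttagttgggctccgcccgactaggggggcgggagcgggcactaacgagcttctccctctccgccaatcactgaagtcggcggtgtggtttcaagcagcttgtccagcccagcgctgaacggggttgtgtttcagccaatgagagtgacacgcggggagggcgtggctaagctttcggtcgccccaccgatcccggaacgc
The motif, read on both strands, was in 42.9% of the 42 windows of 35 interferon-stimulated genes, in 7.02% of the mitosis windows and in 3.02% of all 11605 windows.

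Lysosomal genes rose broadly. Of 56 members 52 were higher and 0 lower, and 4 were not called, among them the master regulators Tfeb (−0.12 ± 0.076, adjusted p = 0.15) and Tfe3 (0.00 ± 0.029, adjusted p = 0.921). The median was 0.52, against 0.37 over the preceding day. Naglu, which degrades the glycosaminoglycan heparan sulfate, had 66.7, 77.6, 74.6, 81.3 and 75.5 CPM in the 5 day 0 libraries, against 30.3, 33.3, 32.3, 30.7 and 30.4 CPM in the 5 day −1 libraries. Every day 0 library lay above every day −1 library (log2 fold change 1.29, SE 0.046, adjusted p = 1.62e-22). Idua, another enzyme of glycosaminoglycan breakdown, rose by 1.30 ± 0.066, the peptidase gene Tpp1 by 0.72 ± 0.026, the collagen-degrading cathepsin gene Ctsk by 1.18 ± 0.045 and the membrane protein gene Lamp2 by 0.64 ± 0.023. Autophagy genes rose by less: 30 of 34 were higher and 1, Atg5, was lower (−0.17 ± 0.040), with a median of 0.26. The cargo receptor genes Nbr1 (0.45 ± 0.027) and Optn (0.66 ± 0.045), the initiating kinase gene Ulk1 (0.45 ± 0.030) and Map1lc3b, which marks autophagosomes (0.49 ± 0.033), were among them.

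Ribosome biogenesis genes fell. Of 55 genes of ribosome biogenesis 52 were lower and 1, Max, was higher (0.07 ± 0.027), with a median of −0.49. Nolc1, a chaperone of the nucleolus, had 163, 142, 151, 135 and 141 CPM in the 5 day 0 libraries, against 236, 239, 241, 270.1 and 263 CPM in the 5 day −1 libraries (log2 fold change −0.74, SE 0.038, adjusted p = 2.71e-18). There was no overlap. Dkc1, which modifies ribosomal RNA, fell (−0.98 ± 0.053), as did Nhp2, its partner (−0.80 ± 0.041), and Myc, the transcription factor that drives this list (−0.83 ± 0.084). The preceding day had brought a larger fall (median −0.72, 55 of 55 lower). A less negative second step was called for 41 members and a more negative one for 0, where 23.7% of all genes were more positive and 26.2% more negative. Without day −1 libraries 1, 2 and 3 these member counts were 10 and 4, and with limma on log2(CPM + 0.5) they were 27 and 3. Cytosolic ribosomal protein genes changed little: 42 of 78 were lower and 9 higher with a median of −0.07, and 32 lower and 10 higher without day −1 libraries 4 and 5.

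Of 65 nuclear-encoded respiratory chain subunits 49 were lower and 4 higher, with a median of −0.19. Cycs, cytochrome c, averaged 32.0 ± 2.35 CPM on day 0 and 56.0 ± 2.95 CPM on day −1, and Atp5b, the catalytic subunit of ATP synthase, 648 ± 17.8 CPM on day 0 and 892 ± 13.3 CPM on day −1. Of 7 mitochondrially encoded transcripts measured, 4 were higher and 1 lower, with mt-Nd5 at 0.31 ± 0.033. Among 27 cytosolic chaperones 25 were lower and 0 higher (median −0.41), led by Hsph1 (−1.04 ± 0.040) and Hsp90aa1 (−0.79 ± 0.032). Endoplasmic reticulum folding genes were more often lower (16 of 26) than higher (7), with Pdia6 (−0.37 ± 0.020) and Hspa5, the chaperone BiP (−0.24 ± 0.024), lower and Sel1l, a subunit of the degradation complex, higher (0.40 ± 0.023). NRF2 targets also fell more often (15 of 29, with 9 higher), among them Txn1, thioredoxin (−0.57 ± 0.024), and Sod1 (−0.37 ± 0.018), whereas the metallothionein genes Mt1 and Mt2 rose (0.52 ± 0.048 and 0.72 ± 0.047).

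Glycolysis and hypoxia-response genes were higher in 26 of 36 cases and lower in 7, with a median of 0.30. Ero1l, an endoplasmic reticulum oxidase induced by hypoxia, averaged 171 ± 8.58 CPM on day 0 and 61.7 ± 2.48 CPM on day −1, Adm, adrenomedullin, 13.9 ± 1.36 CPM on day 0 and 5.45 ± 0.574 CPM on day −1, and Eno2, an enolase, 104 ± 10.8 CPM on day 0 and 46.5 ± 2.55 CPM on day −1. Pkm (−0.27 ± 0.022) and Pfkfb4 (−0.70 ± 0.052) fell. Adm had fallen over the preceding day (−0.57). The integrated stress response list was split, 13 of 35 higher and 14 lower, with Ddit3, given above, and Vldlr, a lipoprotein receptor (1.68 ± 0.070), higher, Psat1, a serine synthesis enzyme (−0.72 ± 0.052), and Gars, a tRNA synthetase (−0.35 ± 0.033), lower, and Atf4, the factor that drives the list, not called (0.00 ± 0.032, adjusted p = 0.928).

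The lists of the IGF axis, Notch, Wnt and the clock had members that rose and members that fell. Igfbp4, which holds IGFs away from their receptor, had 372, 412, 399, 426 and 394 CPM in the 5 day 0 libraries, against 91.7, 84.9, 98.6, 89.0 and 83.6 CPM in the 5 day −1 libraries (log2 fold change 2.20, SE 0.043, adjusted p = 5.48e-29). The rise was 4.58-fold, with no overlap. H19, the imprinted non-coding RNA of the Igf2 locus, averaged 11.6 ± 0.777 CPM on day 0 and 2.36 ± 0.459 CPM on day −1, Igf2r, which clears IGF2, 1387 ± 40.3 CPM on day 0 and 751 ± 30.1 CPM on day −1, and Irs1, an insulin receptor substrate, 122 ± 3.72 CPM on day 0 and 84.0 ± 3.84 CPM on day −1, all higher. Of the 19 measured IGF genes 10 rose and 7 fell, the falls including the RNA-binding genes Igf2bp1 (−0.31 ± 0.025) and Igf2bp3 (−0.21 ± 0.020). Notch receptors rose, Notch1 by 0.91 ± 0.047 and Notch3 by 1.16 ± 0.070, and the target gene Hes1 fell (−0.17 ± 0.037; 7 of 12 higher, 4 lower). Wnt receptor gene Fzd4 rose by 1.10 ± 0.063 and the secreted inhibitor gene Sfrp2 fell (−0.47 ± 0.060; 12 of 21 higher, 5 lower). In the clock list, Rora (1.47 ± 0.087) and the output gene Dbp (0.90 ± 0.058) rose. The core factors Arntl (−0.16 ± 0.042) and Clock (−0.16 ± 0.025) fell a little (10 of 18 higher, 3 lower). Among enzymes of histone H3 lysine 4 methylation 5 of 16 rose and 5 fell, shares near or under those of all genes. Kdm5c, the siRNA target of the other libraries, was 212 ± 4.84 CPM on day 0 and 189 ± 2.90 CPM on day −1 in these control cells, a rise of 0.20 ± 0.035.

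The second 24 h differed from the first in many genes. The difference between the steps, day 0 over day −1 minus day −1 over day −2, was positive for 2843 genes (23.7%) and negative for 3145 (26.2%) at an adjusted p under 0.05. This balance differed between methods. Median-of-ratios scaling gave 2978 positive and 3037 negative genes, and upper-quartile scaling 1977 and 4002. Limma, in which the test and the transform changed and no scaling factor was used, gave 1553 and 4619 on log2(CPM + 0.5) and 1624 and 4539 on log2(CPM + 2). Without day −1 libraries 1, 2 and 3 there were 1722 and 2310. The most positive differences were those of Mmp13 (4.04, SE 0.31), Acta1, skeletal actin (3.37, SE 0.31), the endocytic receptor gene Lrp2 (2.94, SE 0.30), Cmklr1, the chemerin receptor (2.86, SE 0.31), Rgs16 (2.77, SE 0.14) and H19 (2.67, SE 0.19). Their courses were of different kinds. Acta1 averaged 32.2, 1.47 and 0.642 CPM on day −2, day −1 and day 0, a steep early loss that slowed. Cmklr1 averaged 1.29, 0.863 and 3.96 CPM on day −2, day −1 and day 0 and turned upward.

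The most negative differences were those of Lrrc17 (−3.22, SE 0.14), the synuclein gene Sncg (−3.16, SE 0.16), Syt13 (−2.95, SE 0.15), Ntrk3 (−2.94, SE 0.16), the matrix gene Spon2 (−2.86, SE 0.12) and Nfatc2 (−2.79, SE 0.20). Lrrc17 averaged 5.79, 74.8 and 95.7 CPM on day −2, day −1 and day 0, Spon2 5.02, 50.9 and 65.7 CPM on day −2, day −1 and day 0, and Sncg 1.75, 8.73 and 4.50 CPM on day −2, day −1 and day 0. Lrrc17 and Spon2 had made most of their rise by day −1, while Sncg and Ntrk3 peaked there.

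The same interval was measured in 10 libraries of Kdm5c siRNA-treated cells, which share no library with the control comparison. In them 4396 genes (36.6%) were higher and 4582 (38.1%) lower on day 0. Of the 4420 genes higher in scramble cells 3903 were also higher in Kdm5c siRNA-treated cells, 88.3% of the scramble list and 88.8% of the Kdm5c siRNA list, and of the 4557 lower genes 4038 were lower in both (88.6% of the scramble list and 88.1% of the Kdm5c siRNA list). Opposite calls were made for 6 of the genes higher and 37 of those lower in scramble cells. All 279 genes that rose by more than 2-fold in scramble cells were called higher in the other set, and 220 of the 221 that fell by more than 2-fold were called lower. Across the 12016 genes, which are not independent replicates, the log2 fold changes had a Pearson r of 0.952 and a Spearman rho of 0.941. A test of the difference, Kdm5c siRNA step minus scramble step, called 488 genes (4.06%) more positive and 217 (1.81%) more negative. In the mitosis list, 16 of 65 members were more positive under Kdm5c siRNA and 0 more negative, with medians of −0.91 under Kdm5c siRNA and −1.07 under scramble. The cholesterol list had 9 of 25 more positive and 0 more negative (medians 0.03 under Kdm5c siRNA and −0.13 under scramble), and the lysosome list 9 of 56 and 0 (0.57 under Kdm5c siRNA and 0.52 under scramble). The integrated stress response list went the other way, with 0 of 35 more positive and 9 more negative (medians −0.18 under Kdm5c siRNA and −0.04 under scramble). Of the endoplasmic reticulum folding list 7 of 26 were more positive and 0 more negative, of the YAP and TEAD targets 1 of 29 and 5, and of the chemokines and cytokines 5 of 20 and 2. No interferon-stimulated gene was called in either direction (medians 0.68 under Kdm5c siRNA and 0.93 under scramble), nor any ribosome biogenesis gene.

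**Figure D5:**
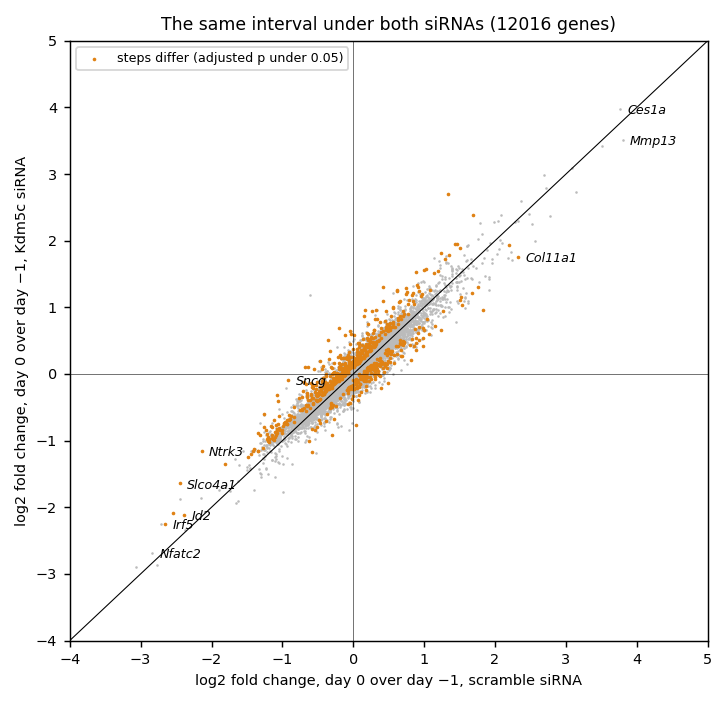
Log2 fold change, day 0 over day −1, of 12016 genes in Kdm5c siRNA-treated cells (y axis) against scramble siRNA-treated cells (x axis); the line marks equal values. Orange points are the genes whose steps differed, 488 above the line and 217 below it; Ntrk3, Slco4a1 and Sncg lie well above the line, with smaller falls under Kdm5c siRNA.

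Genes outside the count table were tested with reads recovered from the deposited CPM values. Of 3119 such genes, 667 (21.4%) were higher and 363 (11.6%) lower on day 0. Among those higher, 317 averaged at least 1 CPM on day 0, and 37 of these averaged under 0.5 CPM on day −1. The count table holds genes with at least 1 CPM in 20 or more libraries. A gene at that level on day 0 only therefore lies outside it, while a gene at that level on day −2 and day −1 stays in. The excess of rises is thus set at least in part by this filter, and nothing is read from it. The genes named next were picked with their values in view. Lum, which encodes the small leucine-rich proteoglycan lumican, had 5.74, 12.1, 7.93, 11.2 and 11.4 CPM in the 5 day 0 libraries, against 0.751, 0.736, 0.773, 0.0670 and 0.599 CPM in the 5 day −1 libraries (log2 fold change 4.06, SE 0.25, adjusted p = 1.12e-16). Its day 0 values were thus all above those of day −1, with library 1 the lowest. Tnr, tenascin-R, a matrix glycoprotein, averaged 10.9 ± 1.09 CPM on day 0 and 1.24 ± 0.277 CPM on day −1, Islr, a marker of mesenchymal stromal cells, 8.02 ± 1.70 CPM on day 0 and 1.56 ± 0.681 CPM on day −1, and the transcription factor gene Tbx2 2.57 ± 0.432 CPM on day 0 and 0.413 ± 0.239 CPM on day −1. Osr2, another transcription factor gene, averaged 2.71 ± 0.503 CPM on day 0 and 0.492 ± 0.0744 CPM on day −1. C4b, a complement component, averaged 1.38 ± 0.163 CPM on day 0 and 0.196 ± 0.0770 CPM on day −1. Selp, P-selectin, fell, with 0.0668, 0, 0.111, 0.0663 and 0.146 CPM in the day 0 libraries, which is at or near the limit of at most 0.114 CPM that a count of 0 allows, against 0.572, 1.02, 1.14, 1.24 and 0.881 CPM in the day −1 libraries.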

How the data were processed

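The series holds 30 strand-specific mRNA libraries of transfected 3T3-L1 cells. Per the submitters' processing notes, reads were handled with STAR 2.7.2a and edgeR 3.26.8 on GRCm38; how reads shared by near-identical genes were counted is not given in the sources used here, so Ces1a, Oas, Ifit, metallothionein and ribosomal protein genes are uncertain. The authors deposited whole-number read counts of 12016 genes, which are the genes with at least 1 CPM in 20 or more libraries, and CPM values of 55573 genes, deposited without a log. Multiplied by the library total, 100.0% of the CPM values were whole reads within 0.05 of a read. Symbols and positions come from GENCODE M21, which matched all 12016 identifiers.

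The counts were tested with edgeR 4.0.16 in R 4.3.3: TMM scaling on full library totals, 6 group means over 30 libraries, 24 residual degrees of freedom, two-sided quasi-likelihood tests, Benjamini-Hochberg adjustment over all genes and calls at an adjusted p under 0.05. Genes outside the count table were tested in the same way on the recovered reads after filterByExpr (15135 genes in all). The 30 libraries had totals of 25217905 to 33725717 reads. In the 10 libraries, the totals of 26252962 to 30147488 reads set a limit of at most 0.114 CPM for a count of 0 (3 reads, counting error only). The edgeR procedure was also run on simulated counts with known changes. Far fewer genes changed there than were called here, in equal numbers each way and with a single spread. That run therefore does not test the scaling or the false calls of these data.

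Members and lists were chosen with earlier results of these data known. The largest rises, falls and step differences were taken from the count table only. Named genes are the 12 largest rises and falls among called genes of at least 2 CPM with no overlap of libraries, the 6 largest step differences each way, the 4 members of each list and direction called with the lowest adjusted p, and a short set given whatever its values; 28 of the 238 genes named lie outside this rule, picked with their values in view, and some that the rule names are not reported here. Alternatives were other scalings, filters and tests (DESeq2 1.42.0, limma 3.58.1 on log2(CPM + 0.5) and log2(CPM + 2)), a replicate block and fits without libraries. Leaving out day −1 libraries 4 and 5, or day 0 libraries 1 and 3, was added after seeing the data. Libraries were not paired, because the labels do not say that the replicate numbers pair cultures. Same-numbered libraries of the days did not deviate together either (r across genes of −0.13 to 0.11).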

Additional observations from a re-analysis of the deposited data

Results flagged for a closer look

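In 558 groups of 5 libraries, those of the named genes and of the list levels, 17 (3.05%) had a library that stood far from the other 4; chance gives about 1 in 20. The gap to the nearest library is given as a share of the whole range of the day. Day 0 library 1 was that library in 7 of the 17. It was high for Arntl (34.95 CPM, the others 29.66 to 30.74; gap 0.796) and Cebpb (74.65 CPM, the others 48.79 to 55.66; gap 0.734), and low for Bhlhe40 (gap 0.794), Lamp2 (0.716) and Optn (0.746). It was also high for the level of the immediate early gene list (0.740) and low for that of the IGF and insulin list (0.759). On day 0, library 4 was high for Ifi47 (15.49 CPM, the others 9.752 to 11.02; gap 0.779), library 2 low for Irf5 (0.763) and library 3 high for Tll1 (0.761). On day −1, library 2 was high for Has2 (0.812), library 5 low for Id4 (0.716) and high for Ntrk3 (0.803), library 3 low for Inhba (0.796) and high for Plin3 (0.806), and library 1 low for Npnt (0.772) and high for Tpm4 (0.714). The libraries are not marked as separate batches.

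For 53 of the 238 named genes the step under Kdm5c siRNA differed from that under scramble siRNA in the edgeR test of the difference (log2, Kdm5c siRNA step minus scramble step). It was more positive in 40 and more negative in 13, where 4.06% of all genes were more positive and 1.81% more negative. Most of the named genes were chosen by their values in scramble cells, so nothing is read from their share. Kdm5c itself, the siRNA target, differed by 0.42. Among cell cycle genes the falls were smaller under Kdm5c siRNA for Mki67 (0.19), Birc5 (0.19), Kif11 (0.16), Cdk1 (0.16), Cenpe (0.13), Uhrf1 (0.20) and Dnmt1 (0.17), and Ccnd2 differed by −0.10. Sterol and fatty acid genes also fell by less: Acat2 (0.27), Mvk (0.24), Fdft1 (0.18), Acly (0.17) and Fasn (0.16).

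Of the largest falls, those of Ntrk3 (0.98), Slco4a1 (0.81), Atoh8 (0.45), Mcam (0.45), Irf5 (0.40) and Id2 (0.27) were smaller under Kdm5c siRNA. Sncg differed by 0.83, with steps of −0.08 under Kdm5c siRNA and −0.92 under scramble siRNA. For Sfrp2 the difference was 0.66, with steps of 0.19 under Kdm5c siRNA and −0.47 under scramble siRNA, and for Syt13 it was 0.38. Smaller falls were those of Klf5 (0.29), Ltbp1 (0.23), Hsph1 (0.20), Gas2 (0.19), Pdia6 (0.19), Timp1 (0.18), Hspa5 (0.17), Cav1 (0.12), Cavin1 (0.11), Pkm (0.11) and Tpm4 (0.10).

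Rises were larger under Kdm5c siRNA for Cp (0.43), Eno2 (0.35), Plin4 (0.34), Pdgfra (0.25), Tpp1 (0.19), F3 (0.18) and Plin3 (0.16). They were smaller for Col11a1 (−0.57), Vldlr (−0.46), Ero1l (−0.40), Gadd45a (−0.37), Postn (−0.34), Mmp11 (−0.33), Igfbp4 (−0.26), Eda2r (−0.20), Col1a1 (−0.15), Ulk1 (−0.14) and Amotl1 (−0.12). Col8a1 differed by −0.45, with steps of −0.38 under Kdm5c siRNA and 0.06 under scramble siRNA.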

How the results depend on the processing

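The counts of higher and lower genes on day 0 stayed within 1.5 times the reported ones in every alternative run. Without 1 library at a time they were 4303 to 4394 higher and 4438 to 4534 lower, and in the Kdm5c siRNA libraries 4283 to 4360 and 4464 to 4525. Over the other alternatives they were 3955 to 4973 and 4206 to 5186. Some of these tested other numbers of genes than the reported 12016, so those counts are not shares of the same set. The 4973 came from 32318 genes without a filter, the 5186 from 15135 genes and the 4206 from 10647 genes. With a replicate block, which is not supported by a pairing, 4411 were higher and 4550 lower. The step difference was the least stable count. Genes with a more positive second step numbered 2843 as reported and 2579 to 2817 without 1 library at a time (more negative: 2898 to 3108), but 1553 with limma on log2(CPM + 0.5), 1624 with limma on log2(CPM + 2) and 1722 without day −1 libraries 1, 2 and 3 together. Of 65 mitosis members, 64 had a more negative second step under each of 3 scalings, DESeq2, both limma fits and without those 3 libraries, and so did 22 to 25 of the 25 cholesterol members. The median step difference of all genes was −0.01 as reported, −0.07 with upper-quartile scaling, and −0.11 and −0.09 with limma, which applied no scaling factor.

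For 238 named genes, 5423 of 5473 values under the alternatives kept the side of the threshold and, for genes called as reported, the direction. Direction was not compared for genes not called. In 32 values a call was lost and in 17 one was gained, over 11 genes. The 1 reversal among called genes was Cebpb, −0.24 as reported and 0.09 without day −1 libraries 1, 2 and 3 together. The cause was not tested. Max (0.02, adjusted p = 0.644, edgeR) and Oas1a (0.44, adjusted p = 0.3) were not called without those 3 libraries, Max also not with limma (adjusted p = 0.188), and Pparg was called with limma (−0.09, adjusted p = 0.016). Of 943 list medians, 89 moved by more than the spread of the list over the day 0 libraries.

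Limits: 1 cell line, collection days without recorded density, 5 libraries a day of unstated origin, and no measure of cell number or cycle phase. Levels are relative, so a change in total RNA per cell would not show. Genes under about 1 CPM rest on few reads.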
